A study of Homo sapiens with 6 samples.

Results

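The mitochondrial ribosomal protein genes are the nuclear genes for the protein part of the mitochondrial ribosome. They were taken as every row of the deposited gene table whose name is MRPL or MRPS followed by digits and an optional letter, which gave 78 of 31853 genes. Of these, 49 carry an MRPL name and 29 an MRPS name. Placed by where the protein sits, 51 belong to the large subunit, 26 to the small subunit and 1, MRPS36, to neither. Poly(A) RNA was sequenced from Mon-Mac-6, a human acute leukaemia line of monocytic type, in 3 libraries after 500 nM WD6305 for 48 h and in 3 libraries after DMSO, the vehicle, for the same time. WD6305 is named in the series title as a PROTAC against METTL3, that is, a molecule made to bring METTL3 to an E3 ubiquitin ligase, and METTL3 is the catalytic subunit of the enzyme that writes N6-methyladenosine on messenger RNA. The labels name 1 cell line and give no allele or agent besides the compound and its vehicle. Separate cultures are stated for no library, so p-values measure only how far these samples spread, which may be a technical spread.

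The mitochondrial ribosome translates the few messenger RNAs encoded by mitochondrial DNA, all of which specify core subunits of the respiratory chain and the ATP synthase. Its RNAs come from mitochondrial DNA, while its proteins are made in the cytosol from nuclear genes and imported. Part of these proteins descend from bacterial ribosomal proteins, and the rest were added in the mitochondrial lineage. The small subunit binds the messenger RNA and decodes it, and the large subunit joins the amino acids and feeds the chain into the inner membrane. Leukaemia cells are known to depend on mitochondrial translation.

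Promoters of 4 members that changed are shown because many members share short sequence elements there that the naming rule did not use. MRPL22, MRPL52 and MRPL3 were picked as lower members that hold such elements, and MRPL41 as a higher member that holds none of those marked. MRPL39 and MRPL12, which also fell, have windows without a marked element. Windows of 300 bases, from 250 before to 50 after the annotated start, were taken from RefSeq on GRCh38.p14 for 69 of the 78 members, with 85 windows in all because some genes have several annotated starts. MRPL10, MRPL13, MRPL15, MRPL2, MRPL21, MRPL23, MRPL35, MRPS28 and MRPS36 had no match. Capitals mark matches to CCGGAAG (a core of ETS factor sites), GCGCATGCG (a core of NRF1 sites) or AAGATGGC (a core of YY1 sites), on either strand. MRPL22, a large subunit gene that was lower under WD6305, has its window at chr5:154940823-154941122 on the plus strand. MRPL52, another large subunit gene that was lower, has its window at chr14:22829637-22829936 on the plus strand. MRPL3, the member with the smallest adjusted p among those that were lower, has its window at chr3:131502922-131503221 on the minus strand. MRPL41, the member with the largest rise, has its window at chr9:137551629-137551928 on the plus strand.
MRPL22: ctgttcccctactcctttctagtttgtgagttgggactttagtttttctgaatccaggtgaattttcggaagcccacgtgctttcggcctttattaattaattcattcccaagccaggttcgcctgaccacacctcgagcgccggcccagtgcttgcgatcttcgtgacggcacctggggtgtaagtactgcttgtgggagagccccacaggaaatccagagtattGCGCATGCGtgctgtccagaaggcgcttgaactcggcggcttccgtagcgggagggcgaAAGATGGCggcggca
MRPL52: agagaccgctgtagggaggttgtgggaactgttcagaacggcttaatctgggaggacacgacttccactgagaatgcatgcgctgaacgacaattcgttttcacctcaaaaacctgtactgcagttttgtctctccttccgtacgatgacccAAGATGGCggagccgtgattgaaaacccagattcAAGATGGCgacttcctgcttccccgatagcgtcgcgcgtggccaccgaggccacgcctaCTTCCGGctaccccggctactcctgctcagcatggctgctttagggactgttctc
MRPL3: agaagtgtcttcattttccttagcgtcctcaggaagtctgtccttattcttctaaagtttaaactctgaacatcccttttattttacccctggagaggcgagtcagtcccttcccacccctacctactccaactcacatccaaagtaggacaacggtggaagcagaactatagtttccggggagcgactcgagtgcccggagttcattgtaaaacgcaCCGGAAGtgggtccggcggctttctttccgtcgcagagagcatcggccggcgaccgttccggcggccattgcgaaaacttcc
MRPL41: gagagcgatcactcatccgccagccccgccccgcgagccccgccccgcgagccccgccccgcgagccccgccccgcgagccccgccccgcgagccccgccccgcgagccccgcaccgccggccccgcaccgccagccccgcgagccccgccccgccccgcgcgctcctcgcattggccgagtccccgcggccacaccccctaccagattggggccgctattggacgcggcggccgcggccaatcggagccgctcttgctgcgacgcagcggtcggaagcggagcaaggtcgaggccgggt

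In MRPL22 the NRF1 match began 24 bases before the start and the YY1 match 36 bases after it. MRPL52 held a pair of YY1 matches, beginning 98 and 64 bases before the start, and an ETS match on the reverse strand 5 bases before it. MRPL3 held an ETS match 32 bases before the start. The MRPL41 window held no match to any of the 3 and instead 8 reverse-strand matches to GGGCGG, a core of SP and KLF factor sites. Counting a gene once if any of its windows matched, the YY1 letters were in 21 of 69 members (30.4%), against 4.66% of 15843 protein-coding genes in the same table. The ETS letters were in 30 members (43.5%), against 16.5% of protein-coding genes. The YY1 and ETS matches shared no base in any of the 8 members with both, and 43 members (62.3%) held at least one of them, against 20.03% of protein-coding genes. In 16 of the 21 members with a YY1 match, one lay on the forward strand 7 to 36 bases after the start, where it falls in the transcript. The NRF1 letters were in 3 members (4.35%, against 3.11%), CACGTG in 9 (13.0%, against 10.9%), CCAAT in 23 (33.3%, against 42.1%) and GGGCGG in 42 (60.9%, against 64.3%). A match is a run of letters and not a shown binding site.

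Under WD6305, 23 of the 78 members fell and 5 rose, and the other 50 did not pass the test (edgeR quasi-likelihood test, Benjamini-Hochberg adjusted p under 0.05 over all 18138 tested genes). Among all tested genes 23.4% changed, 11.2% lower and 12.2% higher, so the members were called lower more often (29.5%) and higher less often (6.41%) than genes at large, a comparison given without a test. All 78 members passed the filter on low counts, and the lowest count of any member in any library was 580. The median log2 fold change was -0.13 over the members, or 8.80% lower, and 0.00 over all tested genes. The log2 fold change was negative for 57 members (73.1%), against 49.9% of tested genes. In bulk RNA, fewer cells carrying a transcript and less of it per cell cannot be told apart. Without WD6305 3, 13 members were lower and 6.92% of all tested genes, and without DMSO 1, 13 members and 8.17% of all tested genes.

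The members are well-expressed genes, and such genes are called more often. Among the 6288 genes with a mean FPKM of at least 5, tested alone, 23.7% were lower and 22.7% higher. The 71 members in that class had 25 lower (35.2%) and 6 higher (8.45%). The changes were small. No member that passed reached 2-fold, and the median absolute log2 fold change was 0.31 over the members called and 0.42 over all genes called. Groups that do not overlap are found in 40.8% of all tested genes. They did not overlap, with WD6305 lower, for 38 members (48.7%), against 20.3% of all tested genes. They did not overlap, with WD6305 higher, for 7 members (8.97%), against 20.4% of all tested genes. The shares without overlap were not taken among genes with a mean FPKM of at least 5, so they are not matched for level. An exact permutation test of 3 libraries against 3 cannot give a two-sided p below 0.1 for any single gene.

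**Figure D1:**
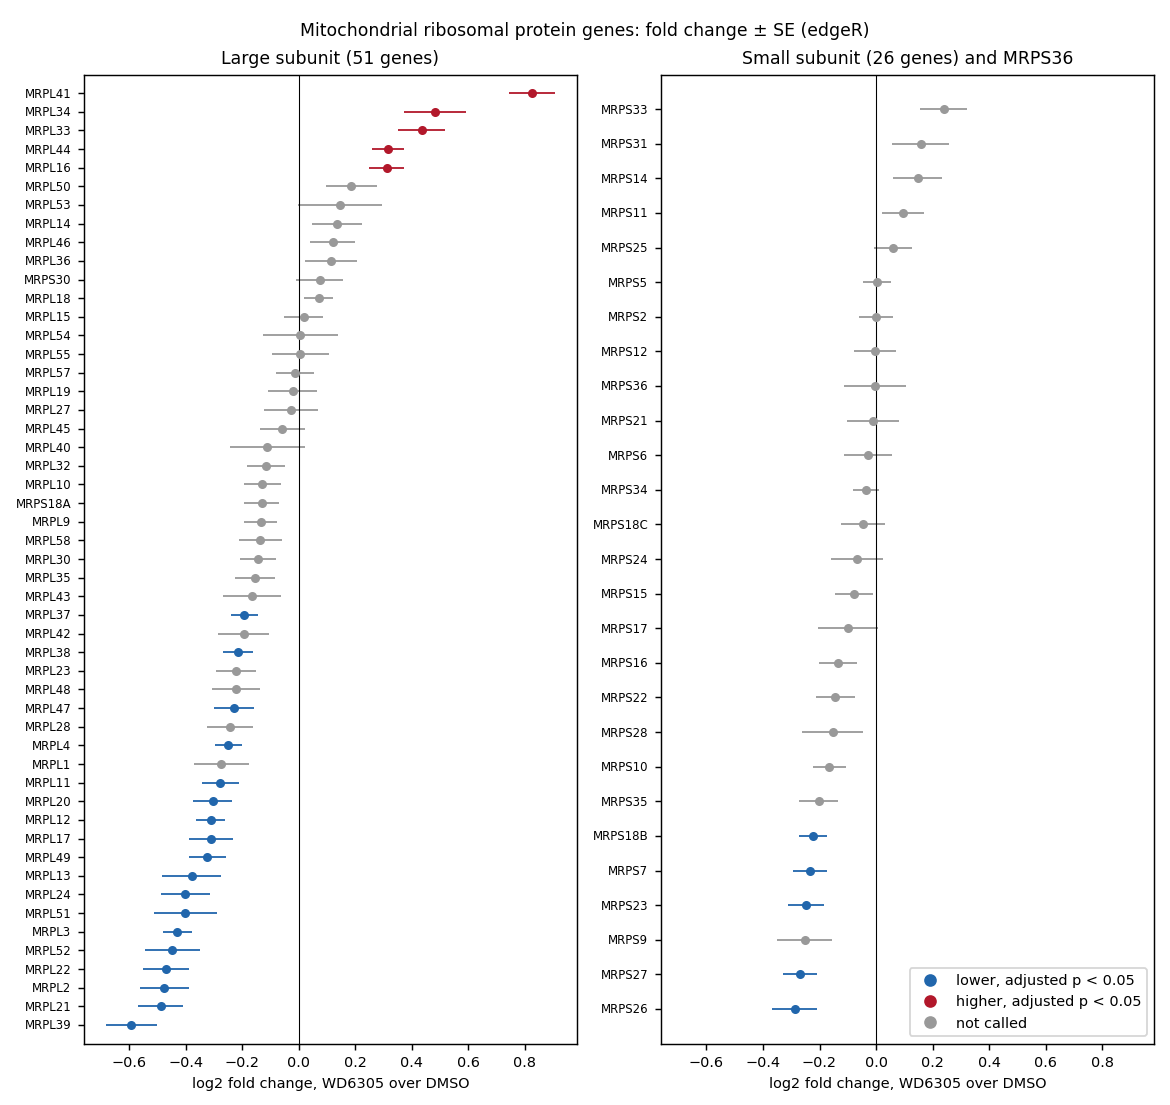
Log2 fold change, WD6305 over DMSO, of each of the 78 members, with bars of 1 standard error from the edgeR fit of 3 libraries per group. The 23 members that fell lie between -0.59 and -0.19, and MRPL41 at 0.82 stands above the other 4 that rose.

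Among the large subunit genes, 18 of 51 (35.3%) fell and 5 (9.80%) rose, with a median log2 fold change of -0.14. Over all tested genes 11.2% were lower and 12.2% higher, and over genes with a mean FPKM of at least 5, tested alone, 23.7% and 22.7%. The core of this set is the proteins with bacterial counterparts, of which 12 of 30 fell and 3 rose (median -0.19). Of the 21 proteins particular to mitochondria, 6 fell and 2 rose (median -0.13). Without DMSO 1, 11 large subunit genes were lower. When genes with a mean FPKM of at least 5 were tested alone, 19 were lower, with MRPL19, MRPL22, MRPL42 and MRPL46 left out.

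MRPL3, a core protein of the large subunit with a bacterial counterpart, had 164, 150 and 151 CPM in the 3 WD6305 libraries, against 206, 204 and 217 CPM in the 3 DMSO libraries. It fell by 25.8% (log2 fold change -0.43, SE 0.05, adjusted p = 0.000559, edgeR), and every WD6305 library lay below every DMSO library. The gene lies at 131462212 to 131502983 on the minus strand of chromosome 3 (GRCh38, as are all gene coordinates here). MRPL39, a protein particular to mitochondria that resembles a threonyl-tRNA synthetase, had 15.2, 14.5 and 15.8 CPM with WD6305, against 23.8, 24.3 and 20.5 CPM with DMSO. Its fall of 33.7% was the deepest of the 78 members (log2 fold change -0.59, SE 0.09, adjusted p = 0.00186, edgeR). MRPL39 lies at 25585656 to 25607517 on chromosome 21, minus strand.

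Some of the genes that fell encode proteins at the working parts of the subunit, while MRPL16, close to the tRNA sites, rose (log2 fold change 0.31). They were named for their small adjusted p, and members were not compared by site. MRPL2, which sits by the peptidyl transferase centre, had 31.3, 31.7 and 34.4 CPM with WD6305, against 49.9, 41.4 and 44.1 CPM with DMSO (log2 fold change -0.48, SE 0.09). MRPL4, which lines the exit tunnel, had 84.4, 78.3 and 83.7 CPM with WD6305, against 97.6, 98.9 and 96.2 CPM with DMSO (log2 fold change -0.25, SE 0.05). MRPL22, another protein of the exit tunnel, had 20.8, 21.7 and 22.5 CPM with WD6305, against 32.4, 29.7 and 27.9 CPM with DMSO (log2 fold change -0.47, SE 0.08). The groups stood apart for each of these genes, and DMSO 1 was the highest library for MRPL2 and MRPL22. Adjusted p was 0.00447 for MRPL2, 0.00684 for MRPL4 and 0.00355 for MRPL22 (edgeR).

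MRPL12 belongs to the stalk that recruits translation factors, and a free pool of it is reported to bind the mitochondrial RNA polymerase. It had 145, 150 and 153 CPM with WD6305, against 196, 180 and 178 CPM with DMSO, a log2 fold change of -0.31 (SE 0.05, adjusted p = 0.0028, edgeR). MRPL21, a core protein with a bacterial counterpart, had 17.3, 16.7 and 18.2 CPM with WD6305, against 26.07, 23.01 and 24.13 CPM with DMSO (log2 fold change -0.49, SE 0.08). MRPL49, which is particular to mitochondria, had 81.2, 90.0 and 95.8 CPM with WD6305, against 116, 109 and 110 CPM with DMSO (log2 fold change -0.32, SE 0.07). None of the WD6305 libraries reached the DMSO range in MRPL12, MRPL21 or MRPL49, and WD6305 1 was the lowest library for MRPL12 and MRPL49. These 8 members kept their calls under all alternatives in which they were tested.

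The other 10 large subunit genes that fell were MRPL24, MRPL52, MRPL20, MRPL11, MRPL38, MRPL37, MRPL17, MRPL13, MRPL51 and MRPL47. Their log2 fold changes lay between -0.45 (MRPL52) and -0.19 (MRPL37). MRPL52 had 20.1, 18.4 and 21.3 CPM with WD6305, against 29.9, 27.3 and 24.3 CPM with DMSO. MRPL24, MRPL52 and MRPL20 kept their calls under all 16 alternatives. The other 7 lost theirs on leaving out single libraries, with the sign kept: MRPL11 without WD6305 1 or DMSO 1, MRPL17 and MRPL51 without WD6305 1, WD6305 3 or DMSO 1, and MRPL38 without WD6305 2, WD6305 3, DMSO 1 or DMSO 2. Of the 6 libraries, MRPL37 could spare DMSO 3 alone, MRPL13 DMSO 2 alone and MRPL47 WD6305 2 alone. MRPL13, MRPL51 and MRPL47 also lost their calls with no filter on low counts, and without DMSO 3 and WD6305 1 together. In limma MRPL13 lost its call on both FPKM scales and MRPL51 on log2(FPKM + 1). In all, MRPL13 lost its call under 10 of 16 alternatives and MRPL47 under 8. MRPL47 had the largest adjusted p of the 10 genes, 0.0466, and 0.0171 to 0.168 over the alternatives (edgeR, limma and DESeq2).

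The 5 members that rose all sit in the large subunit. MRPL41, a protein particular to mitochondria that has also been reported to bind BCL2, had 59.9, 61.7 and 63.4 CPM with WD6305, against 38.8, 33.4 and 32.3 CPM with DMSO. It was 1.77-fold higher (log2 fold change 0.82, SE 0.08, adjusted p = 0.000231, edgeR), the largest change in either direction among the members. The gene lies at 137551879 to 137552555 on the plus strand of chromosome 9. The lowest WD6305 library lay well above the highest DMSO library, and no other row of the table overlaps the gene.

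MRPL44, which carries a ribonuclease III-like fold, had 92.7, 93.9 and 91.5 CPM with WD6305, against 79.8, 70.5 and 73.3 CPM with DMSO (log2 fold change 0.31, SE 0.06, adjusted p = 0.00456, edgeR). MRPL33, a small protein with a bacterial counterpart, had 78.9, 80.3 and 93.1 CPM with WD6305, against 67.8, 60.9 and 58.0 CPM with DMSO (log2 fold change 0.43, SE 0.08, adjusted p = 0.00589, edgeR). MRPL16, a core protein close to the tRNA sites, had 105, 107 and 103 CPM with WD6305, against 88.6, 88.3 and 77.5 CPM with DMSO (log2 fold change 0.31, SE 0.06, adjusted p = 0.00653, edgeR). All 3 genes were separate between the groups, and they and MRPL41 kept their calls under all 16 alternatives. MRPL34, a core protein with a bacterial counterpart, had 48.2, 56.5 and 62.4 CPM with WD6305, against 44.8, 36.5 and 38.6 CPM with DMSO (log2 fold change 0.48, SE 0.11, adjusted p = 0.0133, edgeR). WD6305 1 and DMSO 1 came close to each other in MRPL34, and its call was lost without WD6305 2, WD6305 3 or DMSO 2, with adjusted p up to 0.0604 (edgeR).

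**Figure D2:**
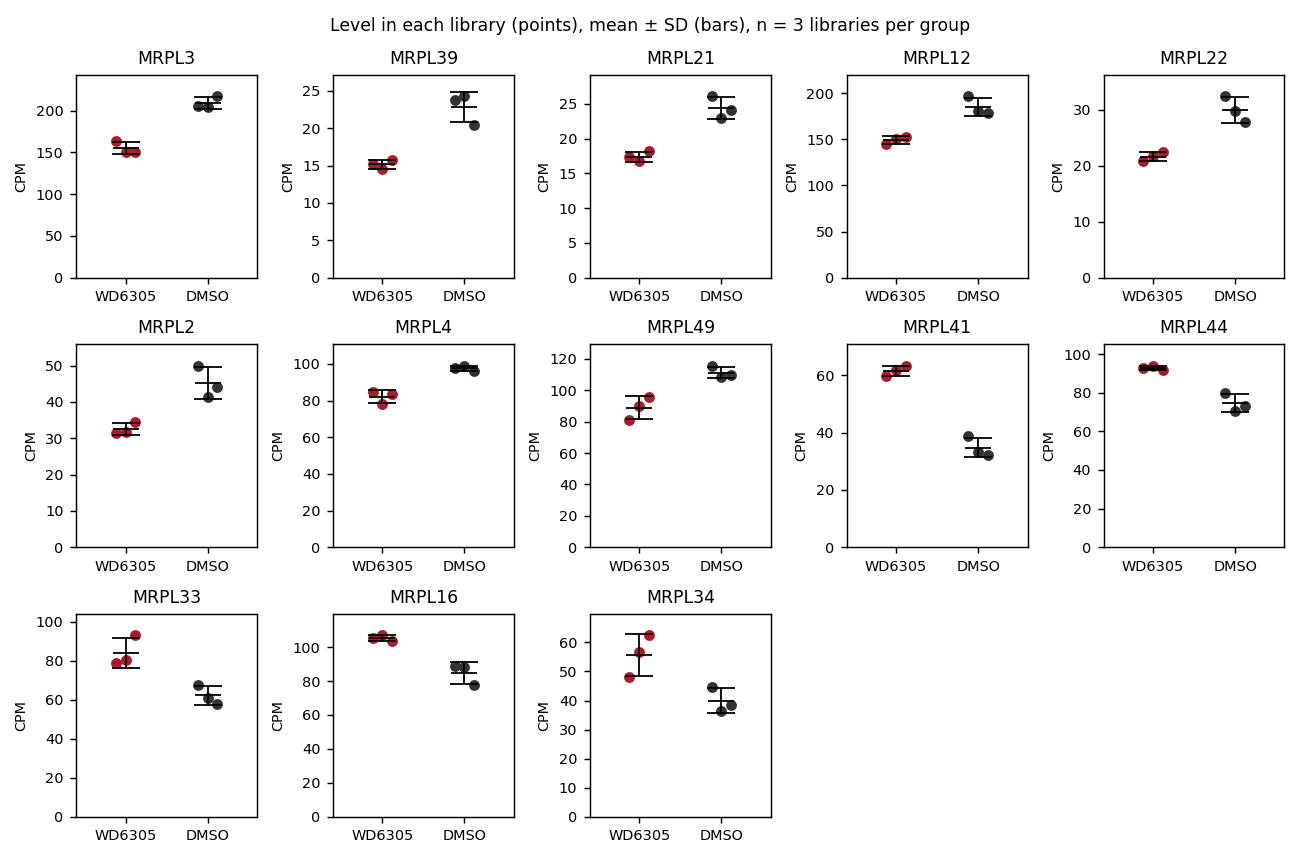
CPM in each library (points) with mean ± SD (n = 3 libraries per group) for the 8 members with the smallest adjusted p among those that fell and the 5 that rose, each panel on its own axis from 0. WD6305 libraries lie wholly below DMSO libraries from MRPL3 to MRPL49 and wholly above them from MRPL41 to MRPL34.

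Of the 26 small subunit genes, 5 (19.2%) fell and none rose in the edgeR fit of all tested genes, with a median log2 fold change of -0.07. The share called lower was 11.2% over all tested genes. It was 23.7% over genes with a mean FPKM of at least 5, tested alone, a fit other than that behind the 19.2%. At an unadjusted p under 0.05, 1 small subunit gene was higher in that fit and in limma. By adjusted p, MRPS33 was called higher in DESeq2, and in edgeR when genes with a mean FPKM of at least 5 were tested alone. Only 1 of 16 genes with a bacterial counterpart, MRPS7, was among those that fell, and the other 4 were among the 10 particular to mitochondria. The count of small subunit genes that fell was 1 without WD6305 2 or WD6305 3, 2 without DMSO 1 and 3 with no filter on low counts. It was 6 when genes with a mean FPKM of at least 5 were tested alone, and 8 in DESeq2. MRPS22, MRPS27 and MRPS31 had a lower mean FPKM, so the 6 stand among fewer than 26 genes. Whether the large and the small subunit differ was not tested. The small subunit median was -0.04 without DMSO 1 or WD6305 1 and -0.11 without DMSO 2.

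MRPS18B, in the small subunit, had 74.4, 73.7 and 74.0 CPM with WD6305, against 88.3, 88.1 and 82.6 CPM with DMSO (log2 fold change -0.22, SE 0.05, adjusted p = 0.0121, edgeR). MRPS7, a core protein that binds the ribosomal RNA of the small subunit head, had 122, 129 and 133 CPM with WD6305, against 162, 148 and 142 CPM with DMSO (log2 fold change -0.23, SE 0.06, adjusted p = 0.0226, edgeR). The WD6305 libraries were below the DMSO libraries in both genes. MRPS18B lost its call without WD6305 3 (adjusted p = 0.0549, edgeR), and MRPS7 kept it without DMSO 3 but lost it without any other single library and with no filter on low counts (adjusted p up to 0.0884, edgeR). MRPS27, a pentatricopeptide repeat protein, MRPS23 and MRPS26 had log2 fold changes of -0.27, -0.25 and -0.29. MRPS27 lost its call without WD6305 2 or WD6305 3, MRPS23 without WD6305 1, WD6305 2 or DMSO 1, and MRPS26 without WD6305 2, WD6305 3, DMSO 1 or DMSO 3. MRPS26 also lost its call with no filter on low counts, and MRPS23 without DMSO 3 and WD6305 1 together.

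The MRPS18 family shows how names and subunits part. MRPS18A, which despite its name sits in the large subunit, had 48.9, 53.4 and 50.9 CPM with WD6305, against 57.9, 54.9 and 55.0 CPM with DMSO, and did not pass (log2 fold change -0.13, adjusted p = 0.166, edgeR). MRPS18C, the member that takes the place of the bacterial protein, had 32.6, 33.9 and 37.6 CPM with WD6305, against 36.2, 34.1 and 37.1 CPM with DMSO (log2 fold change -0.05, adjusted p = 0.736, edgeR). MRPS18A libraries were lower without overlap with WD6305, and MRPS18C libraries overlapped. MRPS18B alone of the 3 passed the test, and the difference between it and the others was not tested. MRPS30, also a large subunit protein, had 47.7, 38.9 and 43.1 CPM with WD6305, against 41.3, 40.0 and 41.9 CPM with DMSO (log2 fold change 0.07). MRPS36, a component of the 2-oxoglutarate dehydrogenase complex, had 9.51, 8.91 and 11.0 CPM with WD6305, against 9.99, 9.19 and 10.3 CPM with DMSO (log2 fold change 0.00). The groups overlapped for MRPS30 and MRPS36. MRPL58, a peptidyl-tRNA hydrolase built into the large subunit, had 38.2, 40.9 and 41.0 CPM with WD6305, against 47.9, 42.8 and 41.3 CPM with DMSO, and did not pass (log2 fold change -0.14, adjusted p = 0.245, edgeR).

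**Figure D3:**
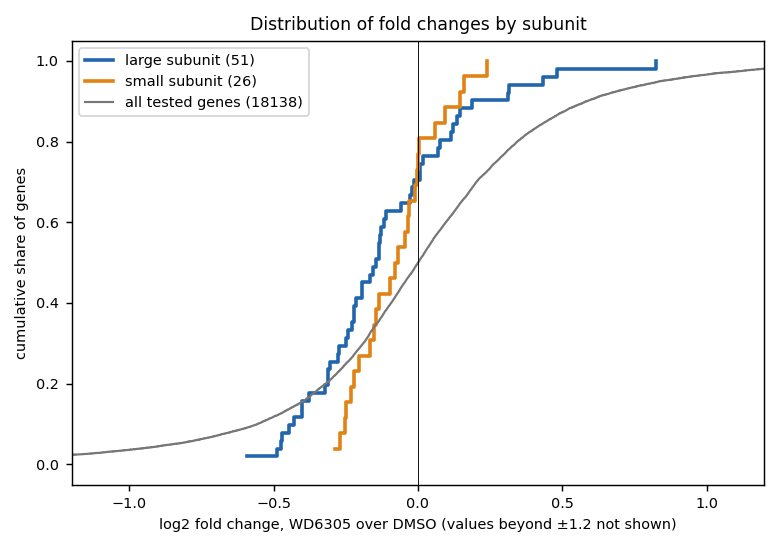
Cumulative share of genes by log2 fold change, WD6305 over DMSO, for the 51 large subunit genes, the 26 small subunit genes and the 18138 tested genes. The large subunit curve spans -0.59 to 0.82 and the small subunit curve -0.29 to 0.24, and both cross the middle left of 0, at -0.14 and -0.07.

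The 50 members that did not pass had log2 fold changes between -0.27 and 0.24. For 15 of them every WD6305 library was below every DMSO library, and for 2, MRPS33 and MRPS31, every WD6305 library was above. The groups overlapped for 33. Of all tested genes, called or not, 20.3% were lower and 20.4% higher without overlap. The shares among genes not called were not taken. The 95% intervals of these members reached down to -0.50 and up to 0.49 on the log2 scale, and those of MRPL1 and MRPS9 alone among them held a fall of the size seen in MRPL3. MRPL23, the nearest to the threshold (log2 fold change -0.22, adjusted p = 0.0537, edgeR), was called lower under 9 of 16 alternatives.

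Per transcript length, members spanned a wide range of levels. Mean FPKM ran from 2.18 (MRPS22) to 138 (MRPL12) with WD6305 and from 2.45 (MRPS22) to 174 (MRPL12) with DMSO. The median level was 15.9 FPKM with WD6305 and 18.2 FPKM with DMSO. MRPL12, MRPS34 and MRPL18 headed the order with DMSO, and MRPL12, MRPS34 and MRPL41 with WD6305. MRPL41 moved to rank 3 with WD6305 (99.2 ± 2.61 FPKM), against rank 6 with DMSO (56.9 ± 4.99 FPKM, SD, n = 3 libraries each). With WD6305 the SD range of MRPL41 overlaps those of MRPS34 and MRPL18, so their order there is not resolved.

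The most abundant members that did not pass were MRPS34 and MRPL18. MRPS34, a small subunit protein particular to mitochondria, had 122, 127 and 118 CPM with WD6305, against 126, 122 and 128 CPM with DMSO (log2 fold change -0.04, SE 0.05). MRPL18, a core protein of the central protuberance, had 142, 143 and 141 CPM with WD6305, against 143, 134 and 128 CPM with DMSO (log2 fold change 0.07, SE 0.05). The groups overlapped in both.

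Summed over the 78 members, FPKM was 1794.2, 1857.2 and 1861.4 in the WD6305 libraries, against 2048.6, 1897.2 and 1922.5 in the DMSO libraries. The sums did not overlap, and the WD6305 mean was 0.939 of the DMSO mean. Large subunit genes summed to 0.947 and small subunit genes to 0.920 of the DMSO mean in FPKM. In CPM, which weights long transcripts more, the same sums were 0.922 and 0.940 of the DMSO mean, so the order of the subunits depends on the scale. The ratio of large to small subunit FPKM was 2.49, 2.56 and 2.60 with WD6305, against 2.51, 2.46 and 2.45 with DMSO, and the groups overlapped. DMSO 1 gave the highest DMSO value for 58 of the 78 members and for 19 of the 23 that fell, and WD6305 1 the lowest WD6305 value for 40.

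**Figure D4:**
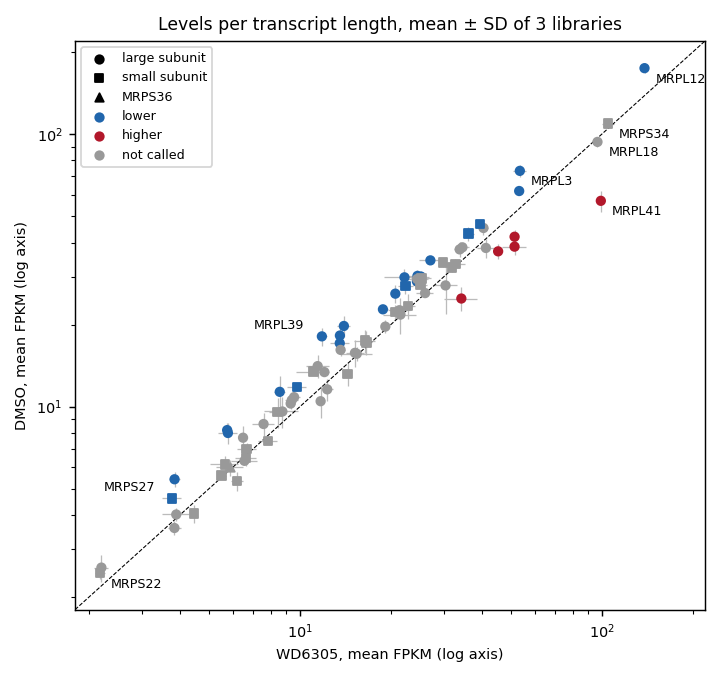
Mean FPKM of each member with WD6305 (horizontal, log axis) and with DMSO (vertical, log axis), with bars of 1 SD over 3 libraries. MRPL12 is the highest in both groups, MRPS22 the lowest, and MRPL41 lies farthest below the diagonal of equal levels.

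Of the 20 lower members with a promoter window, 10 held the YY1 letters, against 0 of the 5 higher members and 11 of the 44 that did not pass. The ETS letters were in 8 of the lower, 2 of the higher and 20 of the other members. These counts are descriptions of few genes and were not tested.

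Many members share their start region with another gene, and 20 of them have a tested gene outside the set that starts head to head within 1000 bases, in 22 pairs. Of these pairs the member fell in 8 and the neighbour in 7, and the neighbour rose in 1. Over all tested genes 11.2% were lower and 12.2% higher. MRPL47, which fell, and MRPL32 each stand in more than 1 pair, so the pairs are not all separate members. Both genes fell in 1 pair, MRPL49 with FAU, a ribosomal protein gene of the cytosol (neighbour log2 fold change -0.26). MRPL18 had a log2 fold change of 0.07 while its neighbour TCP1, a subunit of the cytosolic chaperonin, had -0.52 (SE 0.05, adjusted p = 0.000158, edgeR). MRPS12 had 0.00 while SARS2, the mitochondrial seryl-tRNA synthetase, had -0.34. MRPL36 had 0.11 while NDUFS6, a subunit of complex I, had -0.42, and MRPL43 had -0.17 while TWNK, the mitochondrial DNA helicase, had -0.52. These 4 pairs were picked from those in which the neighbour was called and the member was not, and the differences were not tested. The remaining pairs of this kind were MRPL32 (-0.12) with PSMA2 (-0.24) and with ENSG00000256646 (-3.16), and MRPL50 (0.19) with ZNF189 (0.51). In those the member and its neighbour had the same sign, and ZNF189 was the neighbour that rose. Other pairs had like values, such as MRPL57 with SKA3, a gene of chromosome segregation (-0.01 and -0.02). MRPS11 and MRPL46, members that start 64 bases apart, had 0.10 and 0.12, and neither passed.

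Part of the members overlap other genes, and use of the strand in counting is not stated in the labels or notes, so reads of overlapping genes may be shared. Another row overlapped 43 members, 19 of them on the same strand. For 21 members an overlapping row had at least 10% of the member's own FPKM, among them MRPL49, MRPL2, MRPL51, MRPL47, MRPL20, MRPL13, MRPS7, MRPS27 and MRPL34. The values of those named genes are uncertain for this reason. In the 57 members without such a row 15 fell (26.3%) and 4 rose. That share compares with 29.5% over all members and 11.2% over all tested genes. Among genes with a mean FPKM of at least 5, tested alone, 23.7% were lower. That share is from another fit, in which the members without such a row were not counted, so it is not matched to the 26.3%.

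Other proteins of the ribosome that carry different names moved both ways. Of 5, DAP3, a GTP-binding protein of the small subunit, fell (144.9, 148.8 and 150.3 CPM with WD6305, against 178.3, 168.4 and 160.4 CPM with DMSO, log2 fold change -0.19). CHCHD1, also of the small subunit, rose (23.9, 28.4 and 27.5 CPM with WD6305, against 19.7, 19.1 and 18.1 CPM with DMSO, log2 fold change 0.49). Without DMSO 3 DAP3 kept its call, and without any other single library it lost it, while CHCHD1 kept it under all 16 alternatives. Of 25 assembly factors 5 fell and 1, NOA1, rose, with a median of -0.07, and NOA1 lost its call without WD6305 1, WD6305 3, DMSO 1 or DMSO 2. DHX30, an RNA helicase, fell by 0.32 on the log2 scale (SE 0.04, adjusted p = 0.000809, edgeR). RCC1L and ERAL1, which act in assembly of the large and the small subunit, fell by 0.26 and 0.31.

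Translation factors were split. Of 16, 6 (37.5%) fell and 4 (25.0%) rose, with a median of -0.08. All tested genes had 11.2% lower and 12.2% higher, and genes with a mean FPKM of at least 5, tested alone, 23.7% and 22.7%. MTIF3, the mitochondrial initiation factor IF3, had 104.8, 96.3 and 98.1 CPM with WD6305, against 63.0, 61.0 and 64.5 CPM with DMSO (log2 fold change 0.67, SE 0.05, adjusted p = 0.000108, edgeR). SLIRP, a partner of LRPPRC in keeping mitochondrial messenger RNA stable, had 11.8, 12.2 and 13.4 CPM with WD6305, against 17.9, 16.6 and 16.1 CPM with DMSO (log2 fold change -0.44, SE 0.09, adjusted p = 0.00727, edgeR). MTRFR, a factor that rescues stalled ribosomes, fell by 0.32 and lost its call without WD6305 1 or DMSO 2 (adjusted p up to 0.0535, edgeR).

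The genes that transcribe mitochondrial DNA fell in 3 of 5. The share lower was 11.2% of all tested genes and 23.7% of genes with a mean FPKM of at least 5, tested alone. POLRMT, the RNA polymerase, fell by 0.36 on the log2 scale (SE 0.07, adjusted p = 0.00492, edgeR), and TFB2M, its initiation factor, fell by 0.35 (SE 0.07, adjusted p = 0.00645, edgeR). TFAM, which packages mitochondrial DNA, fell by 0.28 and lost its call under 9 of 16 alternatives, among them leaving out any 1 library but DMSO 1. None of the 5 was called higher in the edgeR fit of all tested genes. In that fit 2 had an unadjusted p under 0.05 on the higher side, and DESeq2 called 1 higher.

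None of the 13 messenger RNAs encoded by mitochondrial DNA passed in the edgeR fit of all tested genes. Of the 13, 12 had a positive log2 fold change, and the median was 0.11. DMSO 3 was the lowest DMSO library for all of them but MT-CO1. Genes of mitochondrial DNA held 5.11%, 4.74% and 4.82% of the counts with WD6305, against 4.56%, 5.02% and 4.10% with DMSO. How far the shared sign rests on DMSO 3 was not tested. At an unadjusted p under 0.05, 1 was higher in edgeR, MT-ND5, and 0 in limma, while DESeq2 called 1 higher by adjusted p. MT-ND5 had 1670.5, 1533.6 and 1569.0 CPM with WD6305, against 1406.8, 1550.4 and 1299.7 CPM with DMSO. The groups overlapped for MT-ND5.

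**Figure D5:**
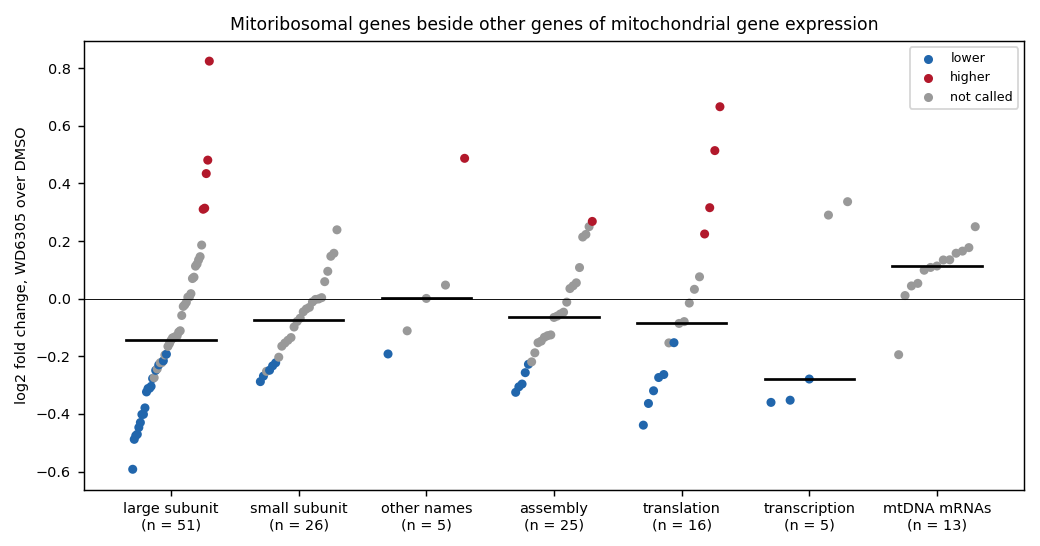
Log2 fold change, WD6305 over DMSO, of each gene of both subunits and of the other lists of mitochondrial gene expression, with called genes coloured and black lines at the medians. Outside the subunits MTIF3 at 0.67 lies highest and SLIRP at -0.44 lowest, and the 13 mitochondrially encoded messenger RNAs lie between -0.19 and 0.25.

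Across the series, library totals were 64525948 to 69726451 counts with WD6305 and 66525685 to 71155346 with DMSO. METTL3 RNA was 78.2, 76.0 and 79.7 CPM with WD6305, against 70.5, 64.9 and 66.4 CPM with DMSO (log2 fold change 0.21, SE 0.05, adjusted p = 0.0218, edgeR), a call lost without any 1 library but DMSO 1 or DMSO 3. The data hold no protein, so METTL3 loss cannot be checked. All 10 monocytic markers reached 1 FPKM in at least 1 library, and their level moved with the treatment. They summed to 5292 to 6085 FPKM with WD6305, against 3148 to 3373 FPKM with DMSO, without overlap and mostly from LYZ, the lysozyme gene. CSF1R, the receptor of macrophage colony-stimulating factor, had 1.68, 2.27 and 1.74 FPKM with WD6305, against 0.78, 0.70 and 0.68 FPKM with DMSO, while CD14 and MPO were lower in every WD6305 library. The part of this shift in the members' values was not tested. Of 10 keratinocyte markers 9 were listed, and they summed to 2.83, 63.2 and 63.0 FPKM with WD6305, against 77.2, 70.7 and 3.15 FPKM with DMSO, so that WD6305 1 and DMSO 3 stand apart from the other 4 libraries. Without both, 22 members were lower and 6 higher, against 9.89% and 12.4% of all tested genes. Of 8 fibroblast markers 1 reached 1 FPKM, and their sum was 0.29 to 4.74 FPKM with WD6305 and 0.43 to 0.56 FPKM with DMSO. Of 9 lymphocyte markers 4 were listed, with 1 reaching 1 FPKM and sums of 139.6 to 170.7 FPKM with WD6305 and 157.4 to 184.7 FPKM with DMSO. Almost all of the lymphocyte sum was NKG7, and the fibroblast sum was highest in WD6305 1, mostly COL1A1 at 3.48 FPKM. The part of the fibroblast and lymphocyte transcripts in the result was not tested.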

How the data were processed

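The deposited gene table gives an estimated count and an FPKM value per gene and library, and 0 further sample columns. Per the submitters' processing notes, the authors used fastp, HISAT2, StringTie and edgeR with GRCh38, and no version or setting is stated. The deposited estimated counts are whole and were used without rounding. Small counts gather at multiples of 4, so they may overstate the number of fragments, and error is taken from the libraries' spread. The deposited FPKM values are per kilobase of transcript and scaled by depth, per the file headers.

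Genes were filtered with filterByExpr, scaled with TMM (factors 0.987 to 1.02), and tested with the edgeR 4.0.16 quasi-likelihood test under R 4.3.3, two-sided, without a block, with Benjamini-Hochberg adjustment over 18138 genes. CPM, computed on TMM-scaled totals, are levels for comparing groups and FPKM for comparing genes, SE comes from the F value, and the biological coefficient of variation was 20.8%. Alternatives used limma 3.58.1 on log2(FPKM + 1) and log2(FPKM + 0.1), DESeq2 1.42.0, other scalings and filters, counts divided by 4, a replicate block and each library left out. The fits were tested on simulated data. Chi-square per degree of freedom of counts divided by 4 was 3.77 to 10.5 within groups, so no library was counted as a duplicate.

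The members and lists were chosen with earlier results of these data known. Genes with values in full were the 8 members with the smallest adjusted p among those lower and all 5 higher, the 3 most abundant of each subunit, MRPS30, MRPS36, the MRPS18 family, MRPL12 and MRPL58, and from the other lists up to 3 genes with the smallest adjusted p. MRPL52, MRPL23, NOA1, TFAM and MT-ND5 and the head-to-head neighbours were chosen after their values were seen. Names with a pseudogene, antisense or divergent-transcript ending were left out (25 rows).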

Additional observations from a re-analysis of the deposited data

How the results depend on the processing

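Leaving out 1 library at a time gave 13 to 23 lower members and 4 to 6 higher, with 13 lower without WD6305 3 or without DMSO 1, and 2756 to 4640 changed genes among all tested, lowest without WD6305 3. The replicate numbers do not pair the samples (correlations of same-numbered deviations from -0.25 to 0.02, and not every sample correlated best with its own number), and with the replicate block 14 members were lower and 5 higher, of which 2 lower in the small subunit, and MRPS7 lost its call (adjusted p = 0.0690, edgeR). The other alternatives gave 18 to 29 lower and 5 or 6 higher members: 24 and 5 with DESeq2 size factors in edgeR, 27 and 5 with library sizes alone, 18 and 5 with no filter, 29 and 6 in DESeq2, 25 and 5 with counts divided by 4, and 25 and 5 or 26 and 5 in limma. No member that was called changed sign under any of the 16 alternatives, and 11 of the 23 lower and 4 of the 5 higher members kept their calls in all in which they were tested. The median of the large subunit stayed between -0.17 and -0.11 and that of the small subunit between -0.11 and -0.04. Of the 21 called genes of the other lists (ribosomal proteins with other names, assembly, translation and transcription), 9 kept their calls throughout. The causes were not tested. With 3 libraries per group, the median SE of a member was 0.08 on the log2 scale, which limits what could be called among the smaller changes.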

Other observations

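Of the 25 rows with a pseudogene, antisense or divergent-transcript ending, 19 were pseudogenes, none of which exceeded 1.96 FPKM in any library. MRPL20-AS1, antisense to MRPL20, had 14.52, 15.81 and 15.83 FPKM with WD6305, against 16.74, 16.38 and 17.27 FPKM with DMSO, the highest of the other 6 rows.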
